A study of Homo sapiens with 24 samples.

Results

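CAMP and ZNF589 are direct neighbours on human chromosome 3, on the same strand, and both stood among the 10 largest rises with calcitriol in a comparison of B-lymphoblastoid cells with and without the hormone. Each gene has 1 probe set on the Affymetrix array, so the pair makes up 2 of the 18417 genes named on the 19460 probe sets with 1 symbol. With probe sets of several symbols, 21214 were tested. The pair was chosen by its measured rise with calcitriol in these arrays, and the signals in the calcitriol comparisons are therefore given as a description, without a test. The tests below concern questions that choice did not ask. They are whether the genes moved in step from array to array and whether estrogen changed either. They are also whether the cell lines differed and whether other genes of the locus took part. The estrogen comparisons share arrays with the calcitriol comparisons behind the choice, so they are not fully separate from it.

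The cells were GM10861 and GM10855, B-cell lines of the HapMap project, immortalised with Epstein-Barr virus. Each line was profiled with calcitriol and estrogen together for 36 h, with calcitriol alone for 36 h, with estrogen alone for 36 h, and untreated at 0 h, with 3 arrays in each of the 8 groups and 24 arrays in all. Because untreated cells were taken at 0 h only, comparisons with them mix agent and culture time, while comparisons among treated groups were matched at 36 h. The sources used here give no dose, vehicle or estrogen compound. Nor do they say whether arrays of 1 group stem from different cultures, so the p-values cover array-to-array spread that could be technical.

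CAMP encodes cathelicidin, a secreted precursor that proteases cut into a peptide that kills microbes and attracts leukocytes. Neutrophils store it in granules, and in human monocytes and keratinocytes it is a classical target of the vitamin D receptor VDR, a nuclear receptor that binds DNA with RXR when calcitriol occupies it. The response element described for human CAMP lies in a primate Alu repeat upstream of the gene. ZNF589, also called SZF1, is a zinc finger protein of the KRAB family, whose members bind DNA and recruit the corepressor TRIM28. It was first described in blood stem and progenitor cells.

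The 250 bases before the annotated start of each gene are shown because the genes rose together and lie next to each other. The starts are 17609 bases apart on the plus strand of RefSeq's GRCh38.p14 annotation, and no other gene of that table begins between them. The CAMP sequence is chr3:48223245-48223494 and the ZNF589 sequence chr3:48240854-48241103. Capitals mark matches, on either strand, to the motifs named after the sequences.
CAMP: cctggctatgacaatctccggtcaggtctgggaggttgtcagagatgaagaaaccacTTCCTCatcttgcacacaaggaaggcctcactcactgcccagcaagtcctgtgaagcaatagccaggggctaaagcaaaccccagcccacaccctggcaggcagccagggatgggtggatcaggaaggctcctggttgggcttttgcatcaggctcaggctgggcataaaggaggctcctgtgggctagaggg
ZNF589: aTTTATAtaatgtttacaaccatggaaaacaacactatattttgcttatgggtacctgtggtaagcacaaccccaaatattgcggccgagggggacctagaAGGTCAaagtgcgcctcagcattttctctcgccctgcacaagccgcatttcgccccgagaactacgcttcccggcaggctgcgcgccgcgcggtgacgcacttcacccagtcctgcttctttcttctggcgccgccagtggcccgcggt
The search covered both strands and 4 half-sites that nuclear receptors of the VDR group can bind. The half-site AGGTCA, present in 12.1% of the 35116 promoter windows of this length, occurred once in ZNF589, at bases -149 to -144. Neither window held the half-site GGGTCA (present in 12.1% of windows), the half-site AGTTCA (present in 8.80%) or the half-site GGTTCA (present in 7.16%), and CAMP held no match to the first. Neither window held any 2 of the half-sites spaced by 3 bases, the arrangement called DR3, which 0.0655% of windows held. Sequence beyond the 250 bases was not searched, so the result does not bear on response elements farther upstream. The CAMP window held GAGGAA, the core bound by the myeloid and B-cell factor PU.1, on the minus strand at bases -193 to -188 (23.6% of windows). The ZNF589 window held TATAAA on the minus strand at bases -249 to -244 (10.7% of windows). The C/EBP core TTNNGNAA occurred in neither window and in 33.2% of all windows, and the SP1 core GGGCGG in neither and in 42.6%. The windows differ in base composition: CAMP had 1 CG pair and ZNF589 had 19, against a median of 11.

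CAMP signals split the arrays into those with and those without calcitriol, with a wide gap. In GM10861 its log2 signal was 7.87, 8.01 and 7.88 with both agents and 8.14, 7.86 and 8.11 with calcitriol alone, against 6.10, 6.13 and 5.88 with estrogen alone and 5.71, 5.96 and 5.55 in untreated cells. In GM10855 it was 8.39, 8.60 and 8.17 with both agents and 8.63, 8.47 and 8.72 with calcitriol alone, against 6.15, 6.02 and 5.65 with estrogen alone and 5.69, 6.27 and 5.99 in untreated cells. The lowest of the 12 calcitriol arrays (7.86) thus lay above the highest of the 12 arrays without it (6.27). Averaged over the lines, CAMP was 5.50-fold higher with calcitriol than in untreated cells (log2 change 2.46 ± 0.102, SE), and 4.48-fold higher with both agents than with estrogen alone (log2 change 2.16 ± 0.102).

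ZNF589 showed the same split with a narrower gap. In GM10861 its log2 signal was 7.56, 7.48 and 7.53 with both agents and 7.41, 7.47 and 7.65 with calcitriol alone, against 6.82, 7.14 and 6.92 with estrogen alone and 7.03, 6.92 and 6.95 in untreated cells. In GM10855 it was 8.09, 7.98 and 7.92 with both agents and 7.90, 7.92 and 7.93 with calcitriol alone, against 6.89, 6.44 and 6.93 with estrogen alone and 6.86, 6.35 and 6.59 in untreated cells. The lowest calcitriol array stood at 7.41 and the highest array without calcitriol at 7.14. Averaged over the lines, ZNF589 was 1.91-fold higher with calcitriol than in untreated cells (log2 change 0.93 ± 0.0852, SE) and 1.87-fold higher with both agents than with estrogen alone (0.90 ± 0.0852). By size of rise CAMP was in place 1 and ZNF589 in place 6 in each comparison, and these values are what chose the pair. At the edge of the 10 largest rises against untreated cells, the gene in place 10 (CLMN) had 0.80 and that in place 11 (SULF2) 0.77. RMA, the authors' normalisation, compresses changes of dim probe sets, and a bulk signal cannot tell more expressing cells from more RNA per cell.

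**Figure D1:**
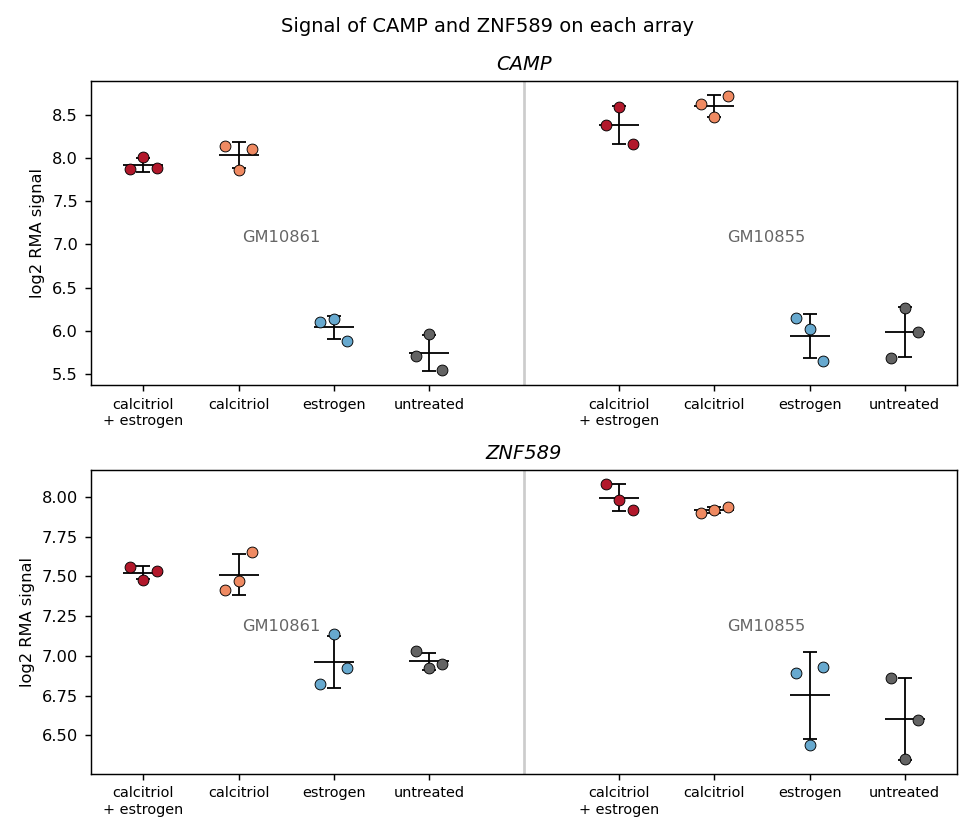
Log2 RMA signal of CAMP (upper panel) and ZNF589 (lower panel) on each of the 24 arrays, by line and agent; points are arrays, long ticks are group means and bars are ± 1 SD of 3 arrays. In each panel the 12 arrays with calcitriol lie above the 12 without, and for ZNF589 GM10855 spans a wider range (6.35 to 8.09) than GM10861 (6.82 to 7.65).

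The first question was whether the pair rose in step from array to array. The signals fall into 2 clusters, with and without calcitriol, so a correlation of the signals themselves would restate the calcitriol response, and the test was made on each array's deviation from its group mean. Over all 24 arrays, the deviations of CAMP and ZNF589 gave a Pearson r of -0.35 (p = 0.301, adjusted p = 0.502) and a Spearman rho of -0.26 (p = 0.342, adjusted p = 0.569), in exact two-sided permutation tests that shuffled arrays within groups. Adjustment was by Benjamini-Hochberg over 5 sets of arrays. Counted without a test, the deviations had the same sign on 9 of 24 arrays. In 2 of 8 groups the array highest in CAMP was also the array highest in ZNF589. By the permutation tests, no positive relation was detectable within groups.

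The negative sign rested on 2 arrays without calcitriol. In untreated GM10855, CAMP was lowest on array 1 and highest on array 2, whereas ZNF589 was highest on array 1 and lowest on array 2. In GM10855 with estrogen, the array lowest in CAMP (array 3, 5.65) was the highest in ZNF589 (6.93). Without untreated array 1 and estrogen array 3 of GM10855, whose CAMP deviations lay farthest from the median, r became 0.06 (n = 22, exact permutation p = 0.790). Within the 12 calcitriol arrays r was 0.18 and rho 0.06 (exact permutation p = 0.630 and 0.863, adjusted p = 0.788 and 0.863), and r was 0.05 without 2 arrays of GM10855 with both agents, arrays 3 and 2. Within the 12 arrays without calcitriol r was -0.50 and rho -0.48 (exact permutation p = 0.251 and 0.215, adjusted p = 0.502 and 0.569), and r was 0.01 without the pair of arrays named above. By line, GM10861 gave an r of 0.06 and a rho of -0.17 (exact permutation p = 0.889 and 0.658, adjusted p = 0.889 and 0.823), and 0.17 without untreated arrays 3 and 2. GM10855 gave an r of -0.51 and a rho of -0.48 (exact permutation p = 0.285 and 0.245, adjusted p = 0.502 and 0.569), and 0.07 without the same pair of arrays.

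The spread within groups was small beside the calcitriol change, which limits what such a test can show. The pooled SD within groups was 0.195 for CAMP and 0.156 for ZNF589, against a median of 0.130 over the probe sets tested. The deviations of the 2 genes also followed the arrays at large to different degrees: the first principal component of the within-group deviations, which held 12.8% of their variance over all probe sets tested, held 57.4% of the variance of ZNF589 and 4.41% of that of CAMP. With that component removed, r was -0.31 (exact permutation p = 0.284).

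**Figure D2:**
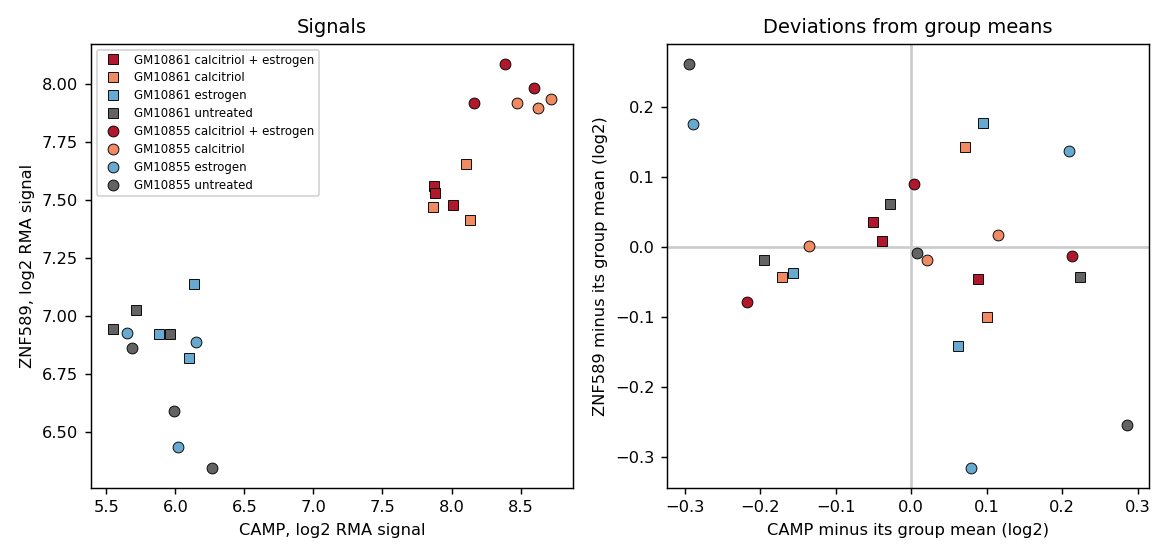
Left, log2 signal of ZNF589 against that of CAMP on each array; right, the same arrays after the mean of each group of 3 was subtracted. Squares are GM10861, circles GM10855, and colours the agents. The signals form a cluster with calcitriol and one without, while the deviations show no common trend (r = -0.35, and 0.06 without 2 arrays of GM10855).

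In likeness of signals, each member was in place 5 to the other, behind a few other genes. Likeness was the Pearson correlation of signals over the 24 arrays, a description that the calcitriol response dominates, among 17780 probe sets of other single protein-coding genes. Closest to CAMP were DENND6B (0.98), the mitochondrial carnitine carrier gene SLC25A20 (0.94), CD79A (0.94), SPATA13 (0.93) and then ZNF589 (0.90). CD79A encodes the alpha chain that signals for the B cell receptor. Closest to ZNF589 were TMEM156 (0.97), ACSL1 (0.96), which encodes a fatty acyl-CoA synthetase, CD79A (0.93), the peroxisomal transporter gene ABCD2 (0.91) and then CAMP (0.90). Among within-group deviations, the genes closest to CAMP were DEFB134 (0.83), NRSN1 (0.81), MCCD1 (0.81), KLK15 (0.78) and SCRT1 (0.78), and ZNF589 was in place 16163. Those closest to ZNF589 were CARMIL1 (0.91), TXLNA (0.88), UNC50 (0.88), MRPS25 (0.86) and GSTCD (0.86), and CAMP was in place 15620. For scale, the within-group r with CAMP ran from -0.42 to 0.42 between the 5th and 95th percentiles of all probe sets tested, a range that holds the value of ZNF589.

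The lines differed in how much ZNF589 rose. In GM10861, ZNF589 was 1.46-fold higher with calcitriol than in untreated cells (log2 change 0.55 ± 0.121, SE) and 1.48-fold higher with both agents than with estrogen alone (0.56 ± 0.121). In GM10855 the same changes were 2.49-fold (1.32 ± 0.121) and 2.37-fold (1.24 ± 0.121). The difference in calcitriol response, GM10861 minus GM10855 and averaged over the absence and presence of estrogen, was -0.73 ± 0.121 (95% interval -0.97 to -0.48, adjusted p = 0.00964 in limma). limma called 22 of 21214 probe sets in this comparison (0.104%), 18 of them lower in GM10861 (0.0848%) and 4 higher (0.0189%). The ZNF589 call held in all 24 fits that left out 1 array (adjusted p from 0.00203 to 0.0261) and in all 6 other alternatives (0.00109 to 0.0389).

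The order of the ZNF589 medians of the lines was opposite with and without calcitriol, which is given as a description. In arrays with calcitriol, ZNF589 had a median log2 signal of 7.51 in GM10861 (7.41 to 7.65) and of 7.93 in GM10855 (7.90 to 8.09), and the lines did not overlap. In arrays without calcitriol it had a median of 6.94 in GM10861 (6.82 to 7.14) and of 6.73 in GM10855 (6.35 to 6.93), and they did overlap. The difference between lines, GM10861 minus GM10855, was -0.44 ± 0.0852 (SE) over the arrays with calcitriol and 0.29 ± 0.0852 over those without, a split made after the values were seen and therefore given without a test. In untreated cells alone ZNF589 was higher in GM10861 by 0.36 ± 0.121 (adjusted p = 0.0295 in limma, where 24.3% were called). Among 6 fits that each dropped 1 untreated array, the call stood in 1, which dropped array 1 of GM10855 (0.49, adjusted p = 0.00452). Dropping array 2 or 3 of GM10855 gave 0.24 and 0.36 (adjusted p = 0.208 and 0.0650), and dropping array 1, 2 or 3 of GM10861 gave 0.33, 0.39 and 0.37 (adjusted p = 0.102, 0.0509 and 0.0573).

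The response of CAMP did not pass the test of a difference between the lines. In GM10861, CAMP was 4.91-fold higher with calcitriol than in untreated cells (log2 change 2.29 ± 0.145, SE) and 3.69-fold higher with both agents than with estrogen alone (1.88 ± 0.145). In GM10855 the same changes were 6.16-fold (2.62 ± 0.145) and 5.44-fold (2.44 ± 0.145). The difference in response, GM10861 minus GM10855, was -0.45 ± 0.145 (95% interval -0.74 to -0.15, unadjusted p = 0.00535, adjusted p = 0.346 in limma) and did not pass. Whether the line difference of ZNF589 exceeds that of CAMP was not tested. Over the same split made after the values were seen, and again without a test, the CAMP difference between lines was -0.52 ± 0.102 with calcitriol and -0.07 ± 0.102 without. As a share of the CAMP change on the log2 scale, the ZNF589 change was 23.8% and 29.9% in GM10861, without and with estrogen, and 50.1% and 50.9% in GM10855.

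**Figure D3:**
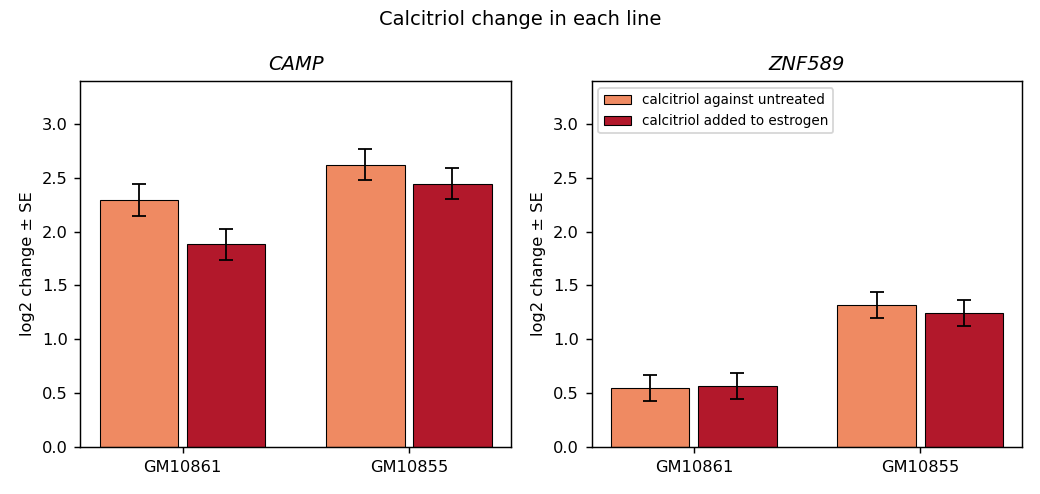
Log2 change with calcitriol in each line for CAMP (left) and ZNF589 (right), against untreated cells (orange) and added to estrogen (red); bars are limma estimates and whiskers ± 1 SE. ZNF589 changed by 0.55 and 0.56 in GM10861 and by 1.32 and 1.24 in GM10855.

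The order of the group means was similar for the genes at the top and not at the bottom. For CAMP the means ran from GM10855 with calcitriol (8.61 ± 0.127, SD, n = 3) and GM10855 with both agents (8.38 ± 0.215) to GM10861 with calcitriol (8.04 ± 0.149) and with both agents (7.92 ± 0.0769). The 4 groups without calcitriol lay between 6.04 and 5.74, and each overlapped the next. For ZNF589 the 2 calcitriol groups of GM10855 (7.99 ± 0.0852 with both agents and 7.92 ± 0.0182 with calcitriol) again lay above those of GM10861 (7.52 ± 0.0418 and 7.51 ± 0.127). Here the groups without calcitriol ran from untreated GM10861 (6.97 ± 0.0551) to untreated GM10855 (6.60 ± 0.257), each overlapping the next. In both genes, calcitriol with and without estrogen overlapped within a line.

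Estrogen changed neither gene detectably. With estrogen alone against untreated cells, CAMP gave a log2 change of 0.13 ± 0.102 (SE, 95% interval -0.09 to 0.34, adjusted p = 0.978) and ZNF589 one of 0.07 ± 0.0852 (-0.10 to 0.25, adjusted p = 0.983). With both agents against calcitriol alone, CAMP gave -0.17 ± 0.102 (-0.38 to 0.04, adjusted p = 0.683) and ZNF589 0.04 ± 0.0852 (-0.13 to 0.22, adjusted p = 0.925). The interaction, the calcitriol change with estrogen minus that without, was -0.30 ± 0.145 for CAMP (-0.59 to 0.00371, unadjusted p = 0.0527, adjusted p = 0.992) and -0.03 ± 0.121 for ZNF589 (-0.28 to 0.22, adjusted p = 0.993). In these 3 comparisons limma called 0 probe sets (0%), with 1097, 1772 and 935 at an unadjusted p under 0.05. Changes of the size of the calcitriol response lie far outside all of these intervals.

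The other genes of the locus gave no call with calcitriol, which for 20 genes is near the share called over all probe sets. The 10 protein-coding genes with a probe set of their own on either side of the pair were KIF9, KLHL18, PTPN23, SCAP, ELP6, CSPG5, SMARCC1, DHX30, MAP4 and CDC25A before CAMP, and NME6, FBXW12, PLXNB1, CCDC51, TMA7, SHISA5, PFKFB4, UCN2, COL7A1 and UQCRC1 after ZNF589. Of these 20, limma called 0 in calcitriol against untreated, where 0.679% of all probe sets were called (0.618% higher and 0.0613% lower). It also called 0 in calcitriol added to estrogen (0.754%, with 0.679% higher and 0.0754% lower). Beside 1390 and 1684 of the 21214 probe sets tested, 0 of the 20 genes reached an unadjusted p under 0.05 in these comparisons. Their changes ran from -0.12 to 0.17 with a median of -0.01 in the first comparison and from -0.12 to 0.08 with a median of -0.03 in the second, beside medians of -0.00108 and -0.0102 over all probe sets tested.

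The nearest genes on either side gave small changes with calcitriol, and neither was called. CDC25A, the cell cycle phosphatase before CAMP, gave 0.03 ± 0.0687 against untreated cells (SE, adjusted p = 0.993) and 0.08 ± 0.0687 added to estrogen (adjusted p = 0.840). NME6, a nucleoside diphosphate kinase family gene after ZNF589, gave -0.06 ± 0.0796 and -0.08 ± 0.0796 (adjusted p = 0.979 and 0.879). The change of CAMP and ZNF589, side by side between them, was 0.90 or more in both comparisons. In the calcitriol response between lines 0 of the 20 were called, and NME6 had a difference of -0.42 ± 0.113 (unadjusted p = 0.00121, adjusted p = 0.208). In untreated cells 6 of the 20 were higher in GM10861 and 0 lower (background 16.2% and 8.15%), namely CDC25A, SMARCC1, ELP6, NME6, KLHL18 and DHX30. That count was 3 without untreated array 2 or 3 of GM10855 or untreated array 1 of GM10861, 3 over all probe sets and 2 when fitted on the untreated arrays alone.

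**Figure D4:**
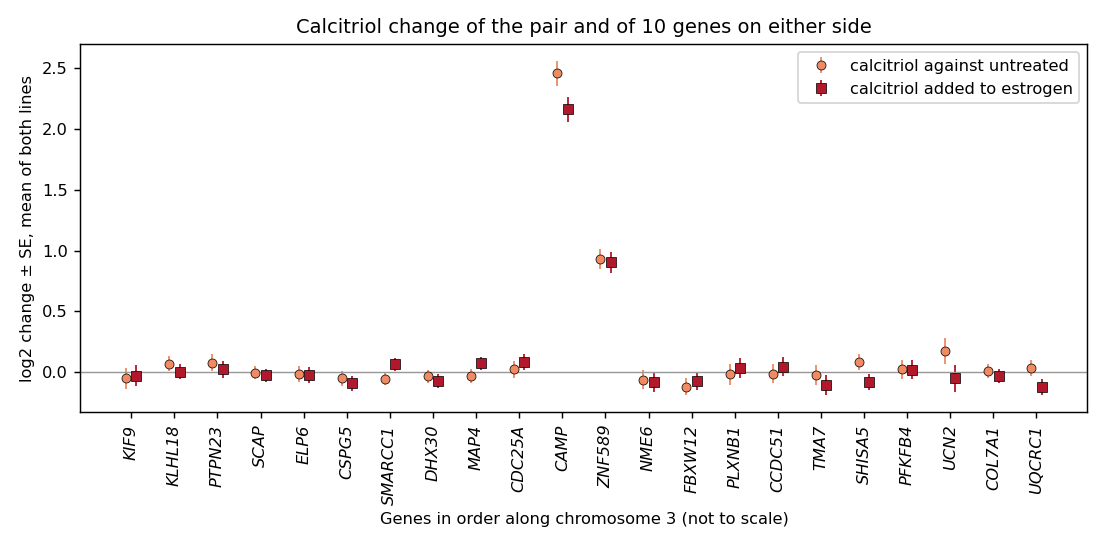
Log2 change with calcitriol, averaged over the lines, for CAMP, ZNF589 and 10 genes on either side, in gene order (spacing not to scale); circles are calcitriol against untreated, squares calcitriol added to estrogen, and whiskers ± 1 SE. Every flanking gene lies between -0.12 and 0.17, and CAMP and ZNF589 lie at 0.90 or above.

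Genes tied to cathelicidin by function were next counted. Of 30 other antimicrobial peptides and proteins listed, 27 were measured, while DEFB4A, RNASE3 and HTN3 had no probe set with 1 symbol. Among the 27, limma called 0 in each calcitriol comparison, and the medians were 0.02 and -0.03. Over all probe sets 0.679% and 0.754% were called, so 0 calls in a list of this size are near the background. At an unadjusted p under 0.05 stood 0 of the 27, against 1390 and 1684 of the 21214 probe sets tested. In calcitriol against untreated, the beta-defensin DEFB1 gave 0.13 ± 0.0840 (adjusted p = 0.911), DCD, the sweat gland peptide dermcidin, -0.14 ± 0.0742 (adjusted p = 0.814), REG3A, an intestinal lectin, 0.15 ± 0.0790 (adjusted p = 0.816) and the liver peptide gene LEAP2 0.14 ± 0.0829 (adjusted p = 0.881). The mean log2 signals of these genes were 3.03 (DEFB1), 4.47 (DCD), 2.51 (REG3A) and 5.33 (LEAP2). No detection limit was given, so a change in such dim probe sets could be missed. Of 9 genes for proteases that cut cathelicidin and for receptors its peptide acts on, 0 were called in either comparison, against the same background. At an unadjusted p under 0.05 stood 0 of these 9. Among them PRTN3, the neutrophil protease that releases the peptide, gave -0.03 and -0.15 (adjusted p = 0.992 and 0.686).

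The list headed regulators of CAMP transcription also held known hormone-response genes, and it was chosen with earlier results of these data known. CYP24A1 stands in it as such a response gene, in place 2 by size of rise in both comparisons. Calls in this list are thus no result about the regulation of CAMP, which was not tested. Of 19 measured, 2 rose in calcitriol against untreated, CYP24A1, which inactivates calcitriol (log2 change 2.06 ± 0.115, adjusted p = 3.89e-11), and VDR (0.44 ± 0.0623, adjusted p = 2e-04), against a background of 0.618% called higher. In calcitriol added to estrogen 3 rose (background 0.679%): CYP24A1 (2.08), VDR (0.31, adjusted p = 0.0134) and HIF1A, the hypoxia factor (0.37 ± 0.0550, adjusted p = 4.06e-04), which gave 0.22 (adjusted p = 0.0711) against untreated cells. Dropping array 3 of GM10861 treated with both agents ended the VDR call in the second comparison (0.27, adjusted p = 0.0540), as did a fit on the 12 arrays compared (0.31, adjusted p = 0.0591). The medians of the list were -0.0072 and 0.03. CYP24A1 also differed between the lines in its calcitriol response, by 0.96 ± 0.163 (GM10861 minus GM10855, adjusted p = 0.0118), with the sign opposite to that of ZNF589.

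Other zinc finger genes rose less than ZNF589. Because ZNF589 was chosen for the size of its rise, this contrast is a description and sets it apart by choice. Of 479 other genes named ZNF with a number, 1 rose in calcitriol against untreated, ZNF165 (0.39 ± 0.0888, adjusted p = 0.0342), where 0.618% of all probe sets were called higher. In calcitriol added to estrogen 4 rose, ZNF165 (0.39), ZNF385B (0.31), ZNF26 (0.23) and ZNF836 (0.22), and 1 fell, ZNF18 (-0.22 ± 0.0513, adjusted p = 0.0447), where 0.679% of all probe sets were called higher and 0.0754% lower, so these few calls are no result about the family. For each of these 5, at least 7 of 12 fits that dropped 1 array gave no call (adjusted p up to 0.153). The whole family ran from -0.36 to 0.39 with a median of -0.01 in the first comparison and from -0.24 to 0.39 with a median of 0.03 in the second. Of 12 genes for the KRAB corepressor complex, 0 were called in either (1 in each at an unadjusted p under 0.05, CBX5 at -0.13 and CBX1 at -0.13). Over all probe sets 0.679% and 0.754% were called, so 0 of 12 is near the background.

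No marker of the cell types best known for cathelicidin was called with calcitriol. Over all probe sets 0.679% were called against untreated and 0.754% added to estrogen, so 0 calls in such short lists are near the background. Of 11 neutrophil markers measured, 0 were called with calcitriol. Their summed signal spanned 8.71 to 8.93 (log2) on calcitriol arrays and 8.70 to 9.10 on the others. The mean signal was at least 5 for 5 of the 11, with ELANE at 6.84 and PRTN3 at 6.01, while MPO and LTF had 4.69 and 4.54. The 8 monocyte markers spanned 7.55 to 7.83 with calcitriol and 7.56 to 7.86 without, and 4 keratinocyte markers 7.13 to 7.37 with calcitriol and 7.005 to 7.65 without, with 0 called in each list. Of 3 T cell markers, spanning 5.89 to 6.10 with calcitriol and 5.91 to 6.19 without, 0 were called. The file gives no detection limit, so whether such signals exceed background is not known. Of 8 B cell markers measured, 3 rose in calcitriol against untreated (0.618% over all probe sets), CD79A (0.85), CR2 (0.41) and PAX5 (0.26), and the other 5 were not called. The summed signal spanned 11.81 to 11.96 with calcitriol and 11.32 to 11.86 without. Their part in the changes of CAMP and ZNF589 was not tested. In calcitriol against untreated, 8 of 12 fits that dropped 1 array gave no call for PAX5 (adjusted p up to 0.0816). In calcitriol added to estrogen 3 of the 8 markers rose as well (0.679% over all probe sets), again CD79A, CR2 and PAX5. There the PAX5 call held in all 12 fits that dropped 1 array (adjusted p up to 0.0138).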

How the data were processed

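The authors deposited 1 log2 value for every probe set and array; the submitters' processing notes name RMA and Affymetrix Expression Console 1.0.1. RMA corrects background, equalises the distributions of arrays and combines each set's probes. The genome build is not given in the sources used here, and 0 columns of other samples were present. Probe sets were named from GEO's platform annotation, 19460 with 1 symbol, 1754 with several and 12083 with none; 19429 of the first matched RefSeq's GRCh38.p14 gene table by Entrez ID, used for gene order. CAMP and ZNF589 were in no probe set with several symbols (0 each). Array medians ran from 5.38 to 5.50, arrays of a group correlated at 0.985 to 0.993, and 0 pairs were identical. The number of arrays limits the precision.

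The 21214 probe sets with a symbol were fitted with limma 3.58.1 in R 4.3.3 (1 mean for each of 8 groups, 24 arrays, 16 residual degrees of freedom, eBayes), with Benjamini-Hochberg adjustment over all of them and calls at an adjusted p under 0.05. Within-group correlations were tested by exact permutation in Python 3.11.15, and both procedures were tested on simulated data. For genes with several probe sets the one with the highest mean was used. Named were the pair, the 20 flanking genes, called list members (or up to 4 of smallest p) and the 5 genes most like each member. Array numbers follow the sample list and pair no arrays. The pair and the lists were chosen with earlier results of these data known.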

Additional observations from a re-analysis of the deposited data

Results flagged for a closer look

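A difference in calcitriol response between the lines (GM10861 minus GM10855) was tested as an interaction in limma. It passed the threshold for 4 genes among the pair and the lists, and for 22 of all 21214 probe sets (0.104%). By list, 2 of 8 B cell markers, 1 of 19 in the list headed regulators of CAMP transcription and 0 of 479 other ZNF genes passed. The lists were chosen with earlier results of these data known, so these counts are a description. ZNF589 responded less in GM10861, by -0.73 (adjusted p = 0.00964). CYP24A1 responded more in GM10861, by 0.96 (adjusted p = 0.0118), held without any 1 array and passed in 4 of 5 other alternatives (up to an adjusted p of 0.0520). The B cell surface gene MS4A1 gave -0.42 (adjusted p = 0.0136) and held in all 24 fits without 1 array. CD79A gave -0.46 (adjusted p = 0.0393), and 17 of those 24 fits gave no call for it (adjusted p up to 0.0955).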

How the results depend on the processing

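The changes of CAMP and ZNF589 with calcitriol moved by less than 1 SD between replicates in all 7 alternatives of each comparison, and without 1 array they ran from 2.39 to 2.53 and 0.87 to 0.996 against untreated cells and from 2.09 to 2.22 and 0.82 to 0.95 added to estrogen. Neither member was called for estrogen or the interaction in any alternative. The change with estrogen against untreated ran from 0.053 to 0.20 for CAMP and from 0.0088 to 0.15 for ZNF589 without 1 array, and that with estrogen added to calcitriol from -0.22 to -0.11 and from 0.020 to 0.080. The interaction of ZNF589 ran from -0.11 to 0.036 without 1 array and changed sign in 5 of 24 fits. The line difference of ZNF589 in untreated cells lost its call over all probe sets (0.36, adjusted p = 0.0527), with cyclic loess (0.28, adjusted p = 0.0810) and when fitted on the untreated arrays alone (0.36, adjusted p = 0.0608), and ran from 0.24 to 0.49 without 1 array. That of CAMP in arrays without calcitriol ran from -0.15 to 0.000106 without 1 array. The within-group r ran from -0.49 to -0.16 without 1 array, was -0.31 with arrays centred on their medians and -0.36 with cyclic loess, and 0.064 without the 2 arrays farthest out. Counts of called probe sets moved by over 1.5 times as follows. Calcitriol added to estrogen gave 160, against 99 when fitted on its own 12 arrays and 99 to 139 without 1 array, the lowest without array 1 of GM10855 with both agents (99), array 1 of GM10861 with estrogen (102) and array 1 of GM10861 with both agents (103). Estrogen against untreated gave 0, against 3 with the filter at a mean signal of 5, 6 with trend and robust estimation and 0 to 3 without 1 array. Estrogen added to calcitriol gave 0, against 2 with that filter, 1 with array weights and 0 to 1 without 1 array. The response difference between lines gave 22, against 12 over all probe sets, 55 with trend and robust estimation and 14 to 41 without 1 array, 41 without array 2 of GM10855 with both agents and 14 without untreated array 1 of GM10861. The interaction and the response difference use all 8 groups, so fitting the compared arrays alone was not possible for them. The causes were not tested. Neighbours called with calcitriol stayed at 0 in every setting run, while those called between lines in untreated cells (6) ran from 3 to 8 without 1 array and from 2 to 7 in the other settings. No paired analysis was possible because the labels give the arrays no replicate numbers. Dim probe sets, for which no detection limit was given, limit the smallest changes that can be seen.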
